A study of Rattus norvegicus with 11 samples.

Results

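Adgre1, Aif1, Cd68, Cd163, Mrc1, Marco, Mertk, Msr1 and Folr2 are genes by which macrophages are commonly recognised, and their mRNA was followed in tissue that grew into calvarial suture-bony composite defects of the rat. The members were taken by gene symbol: all 9 were found among the 23781 genes of the count and FPKM tables, and 8 of them, all but Marco, were among the 18049 genes that passed the filter on low counts. The choice of genes named the high Adgre1 of GelMA in advance, so Adgre1 in any comparison with GelMA is described here without a test. Male Sprague Dawley rats, labelled as 4 months old, received a rectangular drilled defect across the coronal suture. The defect was left without scaffold (NC) or filled with gelatin methacryloyl hydrogel (GelMA), porous chitosan (CTS) or an electrospun polylactic acid membrane (PLA), and tissue was taken 6 weeks later. Every group therefore carried the same wound, and no intact calvaria was analysed here. Collagenase-digested cells were depleted of red cells, fixed, permeabilised and sorted as Cd45-, and RNA-seq was run on 3 libraries each of NC, GelMA and CTS and 2 of PLA. No source used here ties a library to an animal, so the p-values measure only the spread between these libraries, which may be technical.

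Macrophages arise from embryonic progenitors or from blood monocytes and depend on signals through the receptor Csf1r. In wounds and around implants they clear debris and dying cells, take up modified lipoproteins and haemoglobin complexes through surface receptors, and release factors that act on stromal cells. Because they are leukocytes they carry Cd45, the phosphatase encoded by Ptprc, and a Cd45- gate is meant to leave them out.

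Ptprc mRNA was present in every library, with 34399, 7446 and 30482 counts in NC, 44842, 37494 and 43133 in GelMA, 43056, 37441 and 31596 in CTS, and 24596 and 24557 in PLA. The gated cells thus held leukocyte transcripts in all groups, and NC replicate 2 held the fewest. Ptprc itself was not called between GelMA and NC, with a log2 fold change of 0.34 (SE 0.41, adjusted p = 0.629). Total counts ran from 22509898 to 31290849 per library. NC replicate 2 stood apart from the other NC libraries, since Col1a1, Col1a2 and Col3a1, collagen genes of fibroblasts and bone cells, took 16.9% of its counts against 0.824% and 2.75% in NC replicates 1 and 3. Its share of the neutrophil transcripts S100a8 plus S100a9 was 0.565%, where the other NC libraries had 5.62% and 3.99%. Results of the 9 members against NC are therefore also given without this library where a call changes. For all other genes named below, single calls were not examined without it.

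RefSeq promoter windows (assembly GRCr8) were found for 7 of the 9 members, namely Adgre1, Cd68, Cd163, Mrc1, Marco, Mertk and Folr2. The letters GAGGAA, the core recognised by the myeloid transcription factor PU.1, or TTCCTC, the same core on the opposite strand, stood in 4 of these 7 windows of 300 bases, and in 27.6% of all 33469 windows. These 4 windows are shown because they hold that core in genes of very different level: Adgre1 and Mrc1 were highest in GelMA, Cd68 had the highest FPKM of the members, and Marco was at 0 counts in nearly every library. For each, the 250 bases before the annotated start are printed on the gene's strand, with the core in capitals. Adgre1 lies at chr9:2329190-2329439 on the plus strand, Mrc1 at chr17:82157475-82157724 on the plus strand, Cd68 at chr10:54882442-54882691 on the minus strand and Marco at chr13:34201256-34201505 on the minus strand.
Adgre1: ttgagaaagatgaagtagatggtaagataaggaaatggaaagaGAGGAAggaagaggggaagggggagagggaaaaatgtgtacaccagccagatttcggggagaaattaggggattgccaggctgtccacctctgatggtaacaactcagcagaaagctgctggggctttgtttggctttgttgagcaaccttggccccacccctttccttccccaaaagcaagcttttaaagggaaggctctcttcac
Mrc1: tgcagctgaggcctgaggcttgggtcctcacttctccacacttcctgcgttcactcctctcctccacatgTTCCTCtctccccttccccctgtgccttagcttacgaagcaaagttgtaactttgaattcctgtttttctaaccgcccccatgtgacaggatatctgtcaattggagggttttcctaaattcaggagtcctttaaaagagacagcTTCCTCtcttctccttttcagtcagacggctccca
Cd68: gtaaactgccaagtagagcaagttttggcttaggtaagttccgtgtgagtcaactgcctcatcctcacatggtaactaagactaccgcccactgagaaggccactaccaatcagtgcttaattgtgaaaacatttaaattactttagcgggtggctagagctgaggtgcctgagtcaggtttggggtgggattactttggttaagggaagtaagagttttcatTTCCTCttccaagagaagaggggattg
Marco: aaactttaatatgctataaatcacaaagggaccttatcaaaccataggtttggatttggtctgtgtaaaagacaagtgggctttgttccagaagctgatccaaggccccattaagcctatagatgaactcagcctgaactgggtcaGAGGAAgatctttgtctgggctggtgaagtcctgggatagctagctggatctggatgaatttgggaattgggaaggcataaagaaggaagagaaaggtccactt
Mrc1 held the core at 2 places before its start and Adgre1, Cd68 and Marco at 1 place each, and Cd68 held it again just after its start. The letters TGAGTCA or TGACTCA, recognised by AP-1 factors, stood in 1 of the 7 windows, that of Cd68, and in 4.63% of all windows. These matches are descriptions of letters in a window, and none of the libraries measured binding.

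The general macrophage markers came first. Adgre1 encodes F4/80, an adhesion-type receptor of the macrophage surface. Its level was 4.24, 2.83 and 3.06 FPKM in NC, 101, 83.6 and 61.9 FPKM in GelMA, 6.22, 7.48 and 6.25 FPKM in CTS, and 17.1 and 20.2 FPKM in PLA. The groups did not overlap on this scale, and their order was NC, CTS, PLA, GelMA. In CPM after TMM scaling, the GelMA mean was 236 ± 53.5 (SD, n = 3) against 11.2 ± 2.03 in NC (n = 3), a 21.0-fold difference of means. In bulk samples such as these, more cells of a type and more RNA per cell cannot be told apart. Against CTS the GelMA mean was 11.8-fold higher, and against PLA 3.02-fold higher. PLA was also above NC, with a log2 fold change of 2.80 (SE 0.23, adjusted p = 5.75e-05), and above CTS, with a log2 fold change of 1.97 (SE 0.22, adjusted p = 0.000433). With limma on log2(FPKM + 1), which carries no composition factor, these Adgre1 values were 2.18 and 1.36.

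Aif1 encodes Iba1, a calcium-binding protein of the macrophage cytoskeleton. It measured 21.6, 7.32 and 25.5 FPKM in NC, 93.7, 120.4 and 126 FPKM in GelMA, 52.9, 38.6 and 58.5 FPKM in CTS, and 60.0 and 61.8 FPKM in PLA. Every library with a scaffold lay above every NC library, and GelMA lay above all others. Aif1 rose in GelMA over NC by a log2 fold change of 2.51 (SE 0.33, adjusted p = 0.00154) and in PLA over NC by 2.15 (SE 0.34, adjusted p = 0.00264). In CTS over NC the log2 fold change of 1.38 (SE 0.32) did not pass, with an adjusted p of 0.125.

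Cd68 encodes a lysosomal glycoprotein of phagocytes and was the member of highest FPKM in all 11 libraries. Its level was 55.3, 19.6 and 38.0 FPKM in NC, 129.9, 155 and 144 FPKM in GelMA, 109.6, 81.2 and 132 FPKM in CTS, and 67.9 and 67.6 FPKM in PLA. GelMA and CTS overlapped, and their log2 difference of -0.35 (CTS against GelMA, 95% interval -0.94 to 0.24, adjusted p = 0.572) was not called. In FPKM both PLA libraries lay below CTS, but in CPM after TMM scaling PLA and CTS overlapped. Their log2 fold change of -0.19 (PLA against CTS, SE 0.30, adjusted p = 0.733) was not called. Cd68 rose in GelMA over NC by a log2 fold change of 1.77 (SE 0.28, adjusted p = 0.00387) and in PLA over NC by 1.23 (SE 0.29, adjusted p = 0.0198). The PLA call was lost when NC replicate 2 was left out, with a log2 fold change of 0.99, and also without NC replicate 3, PLA replicate 1 or PLA replicate 2, with adjusted p of 0.0706, 0.0999 and 0.104. It was lost as well with library size alone in place of TMM (log2 fold change 0.85, adjusted p = 0.109), in limma at either pseudocount (0.95 and 0.97, adjusted p = 0.0843 and 0.0826) or without its filter (adjusted p = 0.141), and in edgeR on PLA and NC alone (adjusted p = 0.137).

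**Figure D1:**
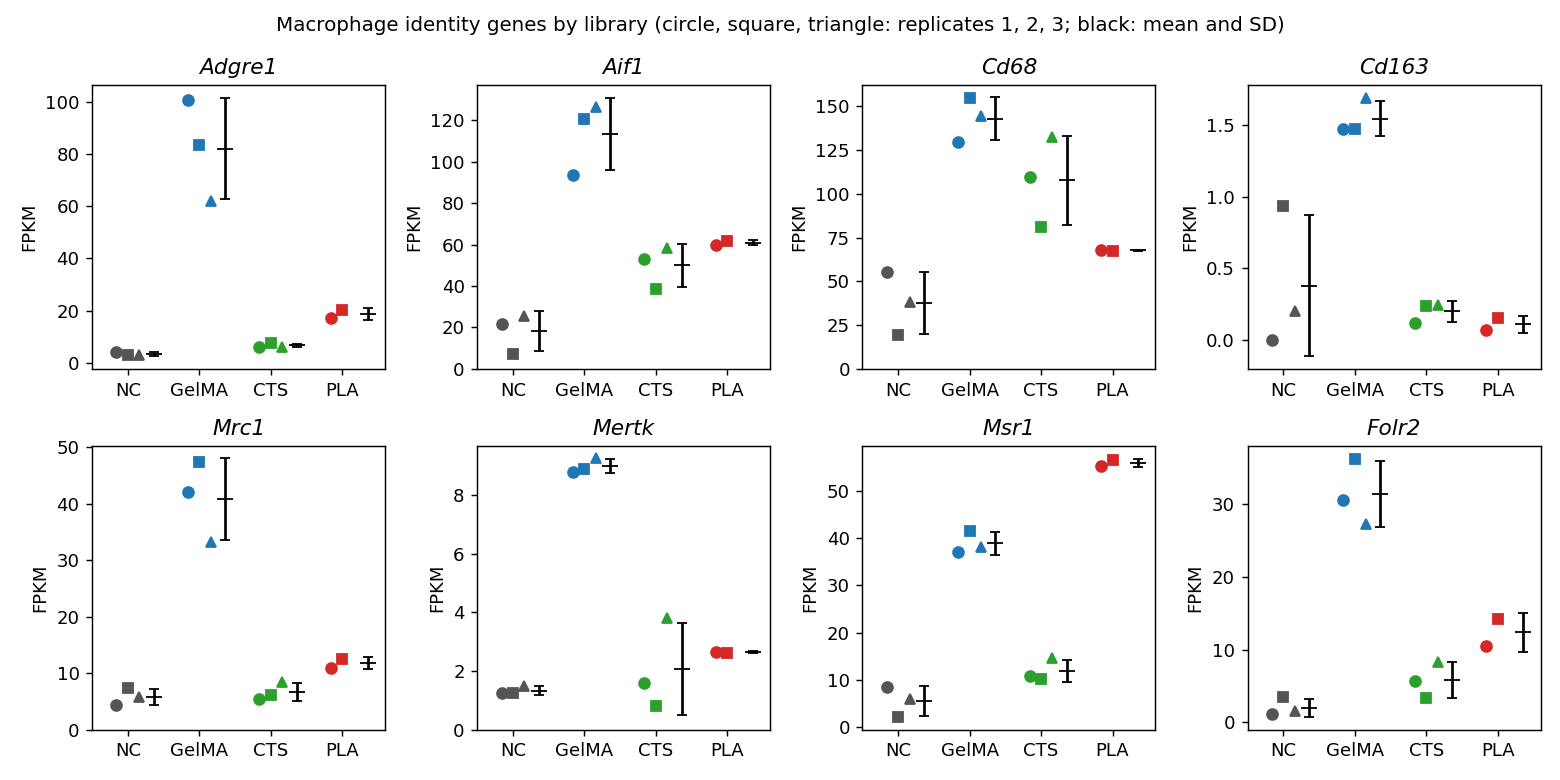
Each panel plots 1 member, with the group on the horizontal axis and the FPKM of each library on the vertical axis, and the black bar gives the mean and SD of the group. GelMA is highest in Adgre1, Aif1, Cd163, Mrc1, Mertk and Folr2 without overlap with any other group, and PLA, at 55.2 and 56.5 FPKM, is highest in Msr1.

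The scavenger receptors Msr1 and Marco came next. Msr1 encodes class A scavenger receptor, which binds modified lipoproteins, microbial surfaces and debris. It measured 8.46, 2.23 and 6.08 FPKM in NC, 37.0, 41.6 and 38.0 FPKM in GelMA, 10.9, 10.2 and 14.6 FPKM in CTS, and 55.2 and 56.5 FPKM in PLA. The groups did not overlap, and Msr1 was the only member whose highest group was PLA. It rose in PLA over NC by a log2 fold change of 3.71 (SE 0.37, adjusted p = 0.000167), a 13.1-fold difference of means, and over CTS by 2.71 (SE 0.35, adjusted p = 0.00107). It also rose in GelMA over NC by 2.66 (SE 0.33, adjusted p = 0.00126). Between PLA and GelMA the log2 fold change of 1.06 (95% interval 0.29 to 1.83) did not pass in edgeR, with an adjusted p of 0.0861. That same difference was called without NC replicate 1 (adjusted p = 0.0322) or NC replicate 2 (adjusted p = 0.00201), which are not part of that contrast, and also in DESeq2 (log2 fold change 1.10, adjusted p = 0.0282) and in edgeR on PLA and GelMA alone (1.08, adjusted p = 7.49e-05). With library size alone it was 0.52 (adjusted p = 0.389) and in limma on log2(FPKM + 1) 0.51 (adjusted p = 0.30), neither called.

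Marco encodes a related class A scavenger receptor, best known from macrophages of the lung and of the splenic marginal zone. It had 2 counts in CTS replicate 1 and 0 counts in the other 10 libraries. A count of 0 allows up to 3 counts, which is 0.0876 to 0.136 CPM in these libraries, a limit that covers counting error only. No fold is given for it. Msr1 and Marco, both class A scavenger receptors, thus differed here, since Msr1 was detected in every library and Marco in CTS replicate 1 alone.

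Mrc1 and Cd163 mark macrophages that take up glycoproteins and haemoglobin complexes. Mrc1 encodes the mannose receptor Cd206, and its level was 4.37, 7.29 and 5.81 FPKM in NC, 42.0, 47.4 and 33.1 FPKM in GelMA, 5.45, 6.12 and 8.36 FPKM in CTS, and 10.99 and 12.5 FPKM in PLA. GelMA lay far above the rest, PLA came next, and CTS overlapped NC. Mrc1 rose in GelMA over NC by a log2 fold change of 2.55 (SE 0.30, adjusted p = 0.000837) and in PLA over NC by 1.29 (SE 0.31, adjusted p = 0.0198). The PLA call was lost without NC replicate 3, PLA replicate 1 or PLA replicate 2, with log2 fold changes of 1.11, 1.39 and 1.19 and adjusted p of 0.0803, 0.0783 and 0.129. Mrc1 fell in CTS against GelMA, with a log2 fold change of -2.56 (SE 0.30, adjusted p = 0.00703), and in PLA against GelMA, with one of -1.26 (SE 0.33, adjusted p = 0.0406). The difference between CTS and NC was -0.01 on the log2 scale (95% interval -0.64 to 0.62), and without NC replicate 2 it was 0.37.

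Cd163 encodes the receptor for haemoglobin bound to haptoglobin and was the detected member of lowest FPKM in all 11 libraries. It had 0, 177 and 33 counts in NC, 295, 300 and 356 in GelMA, 25, 47 and 48 in CTS, and 14 and 31 in PLA. All GelMA libraries lay above all others, at 1.47, 1.48 and 1.69 FPKM, while NC ran from 0 to 0.935 FPKM with its highest value in replicate 2. Against NC the log2 fold change of GelMA, 1.62 (SE 1.11, adjusted p = 0.374), did not pass. Without NC replicate 2 it was 3.87 (adjusted p = 0.0232) and was called. CTS and PLA differed from NC by -1.28 and -1.68 on the log2 scale with all NC libraries and by 0.97 and 0.57 without NC replicate 2, none of them called, so no direction can be given for those scaffolds.

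Mertk encodes a receptor tyrosine kinase by which macrophages engulf apoptotic cells. Its level was 1.26, 1.24 and 1.50 FPKM in NC, 8.78, 8.90 and 9.24 FPKM in GelMA, 1.60, 0.807 and 3.81 FPKM in CTS, and 2.66 and 2.62 FPKM in PLA. The GelMA libraries were close to each other and above all others, while CTS replicate 3 exceeded both PLA libraries. Mertk rose in GelMA over NC by a log2 fold change of 2.53 (SE 0.46, adjusted p = 0.0085). In PLA over NC the log2 fold change of 1.31 (SE 0.49, adjusted p = 0.0989) did not pass, although both PLA libraries lay above all of NC. The adjusted p was 0.0395 with CTS replicate 2 left out and 0.0212 with CTS replicate 3 left out, and the call was then made. DESeq2 also called it, with a log2 fold change of 1.29 and an adjusted p of 0.0473.

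Folr2 encodes folate receptor beta, found on tissue-resident macrophages. It measured 1.11, 3.45 and 1.51 FPKM in NC, 30.5, 36.2 and 27.2 FPKM in GelMA, 5.69, 3.35 and 8.31 FPKM in CTS, and 10.5 and 14.2 FPKM in PLA. GelMA was highest and PLA next, and CTS and NC overlapped through CTS replicate 2 and NC replicate 2. Folr2 rose in GelMA over NC by a log2 fold change of 3.64 (SE 0.54, adjusted p = 0.00282), a 12.4-fold difference of means. Without NC replicate 2, the highest NC library, that log2 fold change was 4.50. Folr2 rose in PLA over NC by 2.83 (SE 0.55, adjusted p = 0.00728), a call lost without PLA replicate 2 (adjusted p = 0.0544). The PLA value was 3.70 without NC replicate 2 and 2.21 in limma on log2(FPKM + 1).

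Counted over the members, most were called higher than NC in GelMA and in PLA. In CTS 0 were called, which is near the share over all genes there and says little of the members. Their median log2 fold change in CTS against NC was 0.92, beside -0.02 over all genes. Adgre1 is left out of the counts with GelMA, which leaves 7 tested members there and 8 elsewhere. In GelMA against NC, 6 of 7 were called higher and 0 lower, beside 5.03% and 3.21% of all genes tested. These 6 calls held in every alternative analysis that was run. All 7 members had GelMA libraries above every NC library, beside 19.3% of all genes. In PLA against NC, 6 of 8 were called higher and 0 lower, beside 8.32% and 4.01% of all genes, and 7 of 8 had both PLA libraries above NC, beside 21.9%. The PLA count ran from 3 to 7 with each library left out, through the calls of Cd68, Mrc1, Mertk and Folr2 given above and that of no other member. In edgeR on PLA and NC alone it was 2, Adgre1 and Msr1, and the adjusted p of Aif1, Cd68, Mrc1 and Folr2 ran from 0.0627 to 0.138. In limma on log2(FPKM + 1) the Mrc1 log2 fold change in PLA was 0.92, short of the fold threshold. In CTS against NC, 0 of 8 were called in either direction, beside 0.155% of all genes called higher and 0.0222% called lower, and 4 of 8 had all CTS libraries above NC, beside 9.51%. At an unadjusted p under 0.05, 5 of the 8 were higher in CTS, namely Adgre1, Aif1, Cd68, Msr1 and Folr2, and DESeq2 called 2, Aif1 and Cd68. Without NC replicate 2, edgeR called 3, Aif1, Cd68 and Folr2, and without NC replicate 1 or CTS replicate 2 it called 1, Cd68. These 3 comparisons share the NC libraries. In each of the 6 comparisons but PLA against GelMA, the direction with 0 calls beside a direction with calls also had 0 members at an unadjusted p under 0.05 and 0 in DESeq2.

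Between scaffolds, members called in CTS against GelMA were all lower and those called in PLA against CTS were all higher. In CTS against GelMA, 4 of 7 members were called lower and 0 higher, beside 1.32% and 0.416% of all genes, and 6 of 7 had all CTS libraries below GelMA, beside 19%. They were Mrc1, Mertk, Msr1 and Folr2, with log2 fold changes of -2.56, -2.05, -1.65 and -2.38. Their adjusted p ran from 0.00703 to 0.0495, and the count moved with single libraries: it was 0 without CTS replicate 1, 2 without CTS replicate 3, 5 without NC replicate 1, 6 without NC replicate 2, and 1, namely Mrc1, without any other library. Mertk moved furthest, to -2.81 without CTS replicate 3, and Msr1 lost its call with library size alone (adjusted p = 0.0506). In PLA against CTS, 3 of 8 were called higher and 0 lower, beside 6.42% and 3.53% of all genes, and 5 of 8 had both PLA libraries above CTS, beside 26.5%. They were Adgre1, Mrc1 and Msr1, and Mrc1 (log2 fold change 1.30, SE 0.31, adjusted p = 0.0217) lost its call without CTS replicate 1, CTS replicate 2 or either PLA library, with adjusted p from 0.086 to 0.142. The Mrc1 difference was also short of the fold threshold with library size alone, at 0.82, and in limma at pseudocounts 1 and 0.1, at 0.75 and 0.83. Folr2 was called higher there without NC replicate 1 (adjusted p = 0.0397) or NC replicate 2 (adjusted p = 0.00428), and Mertk without CTS replicate 3 (adjusted p = 0.0172). Folr2 was also called in DESeq2 (log2 fold change 1.62, adjusted p = 0.0217) and in edgeR on PLA and CTS alone (1.54, adjusted p = 0.0192). In PLA against GelMA, 1 of 7, Mrc1, was called lower and 0 higher, beside 1.47% and 4.61% of all genes, and Msr1 was higher at an unadjusted p under 0.05. Both PLA libraries lay below GelMA in 6 of 7 members, beside 30.7%, and above it in 1, Msr1, beside 27.7%. The single call of Mrc1 was lost without NC replicate 3, any GelMA library, CTS replicate 1, CTS replicate 2 or either PLA library, with adjusted p from 0.0537 to 0.234. Cd163 was called lower there without NC replicate 1 (adjusted p = 0.0247) or NC replicate 2 (adjusted p = 0.0399), and Mertk without CTS replicate 3 (adjusted p = 0.0361).

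**Figure D2:**
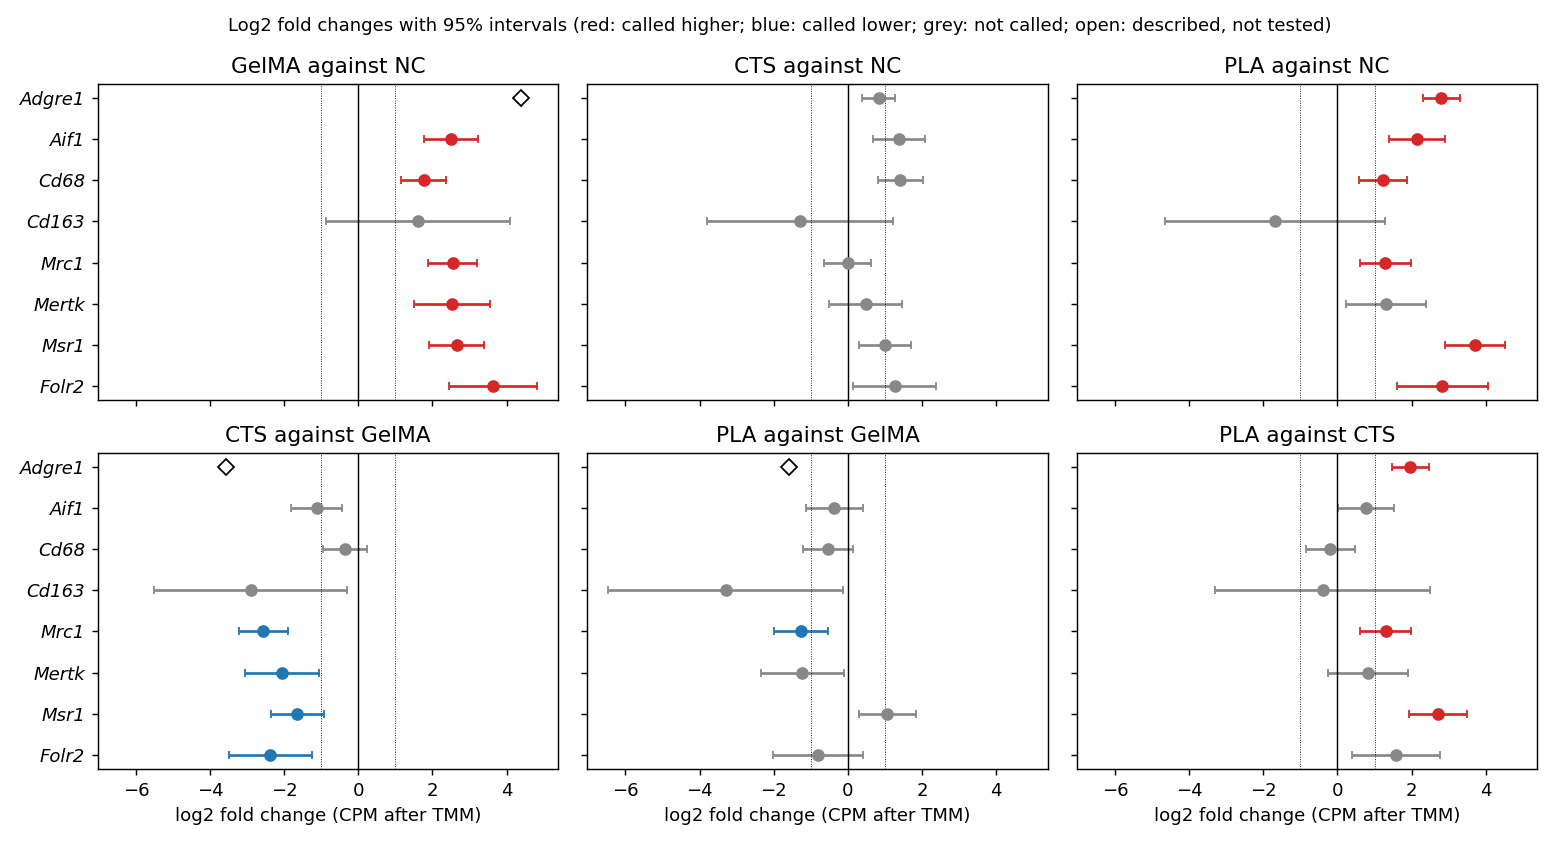
Each panel plots 1 comparison, with the log2 fold change of each detected member on the horizontal axis and its 95% interval as a bar, coloured by call, and Adgre1 against GelMA as an open diamond without a bar. In GelMA against NC 6 members are called higher, in CTS against NC none, and Msr1 is the only member to the right of 0 in PLA against GelMA.

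Summed over the 9 genes, the level was 74.3 ± 26.5 FPKM in NC, 460 ± 29.7 in GelMA, 191 ± 42.2 in CTS (SD, n = 3 each) and 230 ± 7.89 in PLA (n = 2). On this scale CTS and PLA overlapped, since CTS replicate 3 reached 232 FPKM. As a share of all counts, in which longer genes weigh more, the 9 genes took 0.0693% and 0.0729% in PLA and 0.0288% to 0.0433% in CTS, without overlap, beside 0.107% to 0.126% in GelMA and 0.0112% to 0.0198% in NC. Cd68 made up 54.9% to 56.9% of that sum in CTS, 43.6% to 57.4% in NC, 29.3% to 32.7% in GelMA and 28.7% to 30.2% in PLA. Adgre1 made up 14.0% to 22.7% in GelMA against 2.69% to 8.59% in all other libraries. Msr1 made up 24.0% and 24.6% in the PLA libraries against 4.98% to 8.79% in all others. The Adgre1 share of GelMA contains the level named when the genes were chosen and is a description only.

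**Figure D3:**
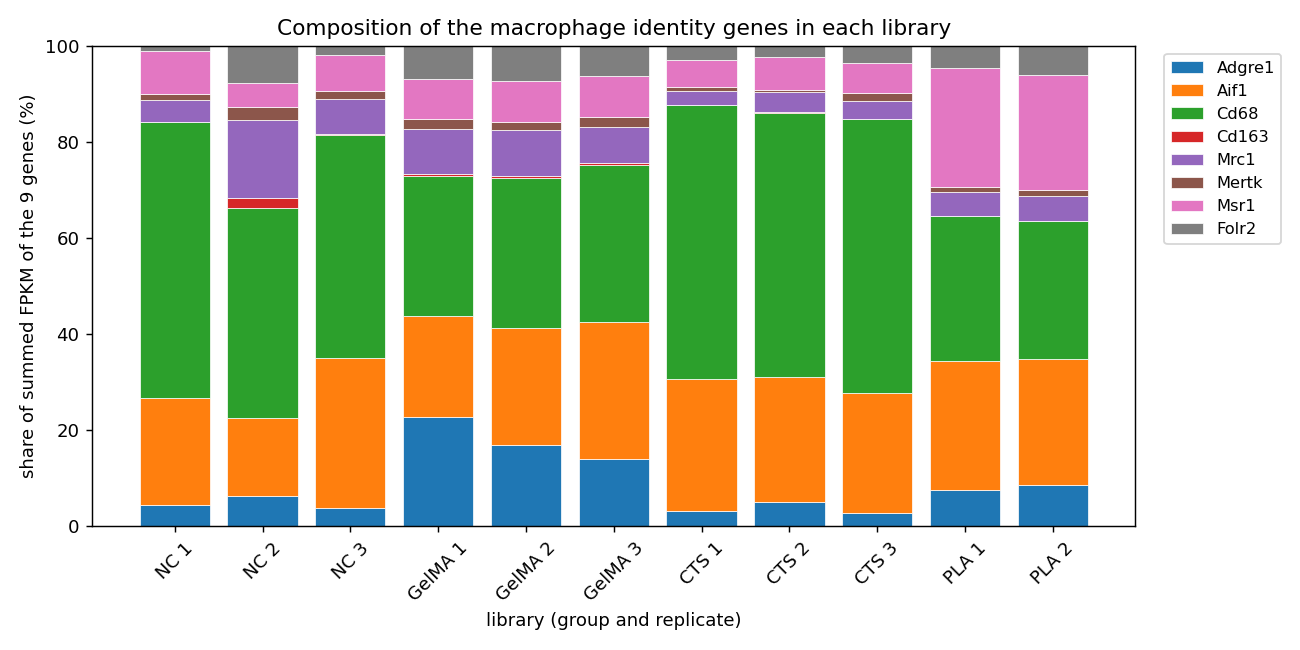
Stacked bars give, for each library on the horizontal axis, the percentage of the summed FPKM of the 9 genes that each member contributed. Msr1 takes 24.0% and 24.6% in PLA, Adgre1 takes 14.0% to 22.7% in GelMA, and Cd68 takes the largest share in each of the 11 libraries.

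Ratios within a library do not depend on its scaling. The Msr1 to Mrc1 ratio of FPKM was 5.02 and 4.52 in PLA, 0.881, 0.876 and 1.15 in GelMA, 2.00, 1.66 and 1.75 in CTS, and 1.94, 0.306 and 1.05 in NC. PLA lay above every other library. NC replicate 1 lay within the range of CTS, NC replicate 3 within that of GelMA, and NC replicate 2 below all other libraries. The Adgre1 to Cd68 ratio was 0.775, 0.540 and 0.429 in GelMA, 0.252 and 0.300 in PLA, 0.0567, 0.0921 and 0.0473 in CTS, and 0.0767, 0.145 and 0.0804 in NC. GelMA was highest, a value that again contains its Adgre1 level, PLA was next, and CTS and NC overlapped.

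**Figure D4:**
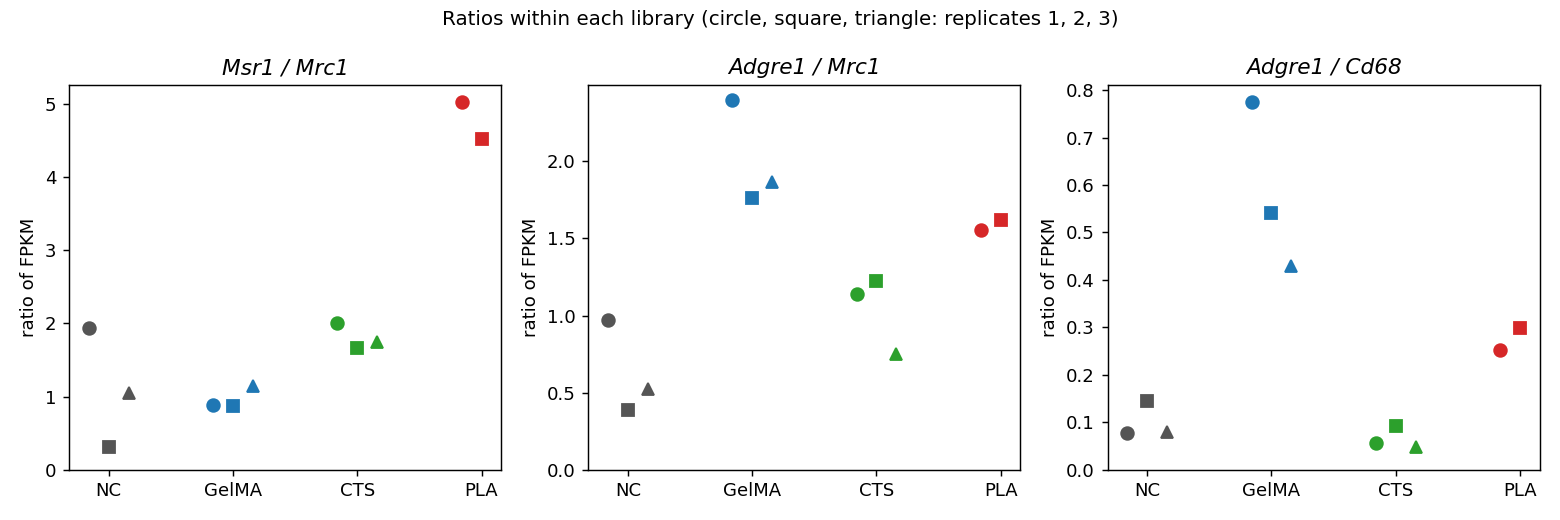
The 3 panels plot the ratio of FPKM of Msr1 to Mrc1, Adgre1 to Mrc1 and Adgre1 to Cd68 for each library, with groups on the horizontal axis. PLA is apart in the first panel, at 4.52 and 5.02, and GelMA is highest in both others.

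Other myeloid genes were read from fixed lists. The counts from these and the later lists stand beside shares of all genes tested. Called higher and lower were 5.03% and 3.21% in GelMA against NC and 8.32% and 4.01% in PLA against NC. In CTS against NC these shares were 0.155% and 0.0222%. Of 18 core macrophage genes that are not members, 9 were called higher and 0 lower in GelMA against NC, with a median log2 fold change of 1.01 beside -0.05 over all genes. They included Csf1r, the receptor on which macrophages depend, at 1.82 (SE 0.20, adjusted p = 0.000689), and the complement genes C1qa and C1qc at 3.04 and 3.00 (adjusted p = 0.0274 and 0.0143). In PLA against NC 7 of the 18 were called higher and 0 lower, and in CTS against NC 2 were called higher, the lysosomal protease gene Ctss at 1.56 and the endotoxin co-receptor gene Cd14 at 1.23. Csf1r did not pass in CTS or PLA against NC, with log2 fold changes of 1.20 and 0.93 and adjusted p of 0.0515 and 0.017, the latter short of the fold threshold. In PLA against GelMA 1 of the 18 was called higher and 1 lower, beside 4.61% and 1.47% of all genes. Counts this small say little of the list, whose median was -0.25 beside -0.042 over all genes. Cebpb, a transcription factor of myeloid cells, rose there by 1.61 (SE 0.15, adjusted p = 0.000476). Ctss fell, with a log2 fold change of -1.18 (SE 0.26, adjusted p = 0.0218). The summed FPKM of this list ran in another order than the calls, at 9477 to 11721 in CTS, 6210 to 8946 in GelMA, 4570 and 4810 in PLA, and 9695, 1886 and 8304 in NC. Its largest term was Lyz2, a lysozyme gene named after its values were seen, at 5283 ± 3444 FPKM in NC, 5031 ± 1586 in GelMA, 8535 ± 1101 in CTS (SD, n = 3 each) and 1920.0 ± 238.9 in PLA (n = 2). Of 11 tested resident-type macrophage genes, 3 were called higher and 1 lower in GelMA against NC, 3 higher and 0 lower in PLA against NC, and 1 higher and 0 lower in CTS against NC, beside 5.03%, 8.32% and 0.155% of all genes called higher. The list medians were 1.10, -0.38 and 0.39, beside -0.05, -0.11 and -0.02 over all genes. In PLA only 5 of the 11 had positive log2 fold changes. Summed levels of this list were 203 to 239 FPKM in GelMA, 115 to 146 in CTS and 114 to 209 in NC. PLA, at 129 and 158 FPKM, lay within the range of NC. The sialic acid receptor gene Siglec1 was called in each comparison of a scaffold with NC, at 4.82 in GelMA, 2.71 in PLA and 4.03 in CTS (adjusted p = 0.000921, 0.0106 and 0.0441). The CTS calls of Siglec1, Ctss and Cd14 were not stable. In CTS against NC 0 genes at all were called at an adjusted p under 0.01 or in edgeR on the 2 groups. The same held with the replicate block, without any single GelMA library, and without CTS replicate 1 or 3. In other alternatives the count of genes called higher there ran up to 373, in DESeq2. The chemokine gene Pf4 was at 2.15 in GelMA and 1.82 in PLA, and F13a1, for a coagulation factor subunit, at -1.41 in GelMA. Against NC, 0 of 7 tested monocyte genes were called higher with any scaffold and 1 lower, in PLA, counts near the shares over all genes. Summed levels were 2168 to 2424 FPKM in CTS, 987 to 1123 in GelMA, 737 and 823 in PLA and 583 to 1588 in NC. Of 7 tested osteoclast genes, 3 were called higher in GelMA and 3 in PLA against NC, with 1 lower in GelMA. Their sums were 215 to 227 FPKM in GelMA, 268 and 288 in PLA, 395 to 433 in CTS and 426 to 574 in NC.

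Further lists were read around single members. Of 10 further genes listed as scavenger receptors, 3 were called higher and 0 lower in GelMA against NC, the same counts in PLA against NC, and 1 higher in CTS against NC. Cd14 and Cxcl16 were called in both GelMA and PLA, and Cd14 is also in the core macrophage list, so its calls are counted in both lists. Olr1, the receptor for oxidised low-density lipoprotein, rose in PLA over NC by a log2 fold change of 3.61 (SE 0.53, adjusted p = 0.00161). Olr1 was also higher in PLA than in GelMA, by 2.65 (SE 0.52, adjusted p = 0.0132), and its level was 768 ± 26.3 FPKM in PLA (n = 2) against 178 ± 69.9 in GelMA (n = 3). Around Cd163, of 9 genes of haemoglobin and haem handling, 1 was called higher and 1 lower in GelMA against NC, and 0 in CTS against NC. In PLA against NC 3 were called higher and 1 lower. There 4 of the 9 had positive log2 fold changes, and the list median was -0.23 beside -0.11 over all genes. Fth1 and Ftl1, the ferritin chains that store iron, rose by 4.12 and 2.94, and Hmox1, which breaks down haem, rose by 1.82 (adjusted p = 0.0272, named after its value was seen), while haptoglobin (Hp) fell by 2.65 on the log2 scale. Cd163 itself had 14 and 31 counts in those PLA libraries. Around Mertk, 1 of 12 efferocytosis genes, the engulfment receptor gene Megf10, was called higher in GelMA against NC, beside 5.03% of all genes. In the other 5 comparisons 0 of the 12 were called. The related receptor gene Axl and the ligand gene Gas6 had log2 fold changes of -1.46 and -0.80 in GelMA against NC, neither called (adjusted p = 0.162 and 0.229). Around Folr2, 0 of 6 folate receptors and carriers were called in any of the 6 comparisons. In lists this short, 0 or 1 call lies near the share over all genes and is no result about the list. Around Adgre1, 0 of 8 other adhesion receptors were called higher in GelMA against NC and 2 were called lower, Adgrg3 at -2.52 and Adgrg1 at -1.42.

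Of 6 macrophage growth factors and receptors, 1 was called higher in GelMA against NC, 0 in CTS against NC and 1 in PLA against NC, with 0 lower in each. The call in GelMA was that of Csf1r, which is also counted in the core macrophage list. In PLA against NC all 6 had positive log2 fold changes, with a median of 1.21 beside -0.11 over all genes. For 5 of them both PLA libraries lay above NC, beside 21.9% of all genes. Their summed level was 470 and 501 FPKM in PLA, 272 to 412 in GelMA, 279 to 296 in CTS and 187 to 264 in NC, so PLA lay above every other library. Csf1, the ligand of Csf1r, measured 56.5 ± 40.0 FPKM in NC, 69.4 ± 33.8 in GelMA, 39.3 ± 1.97 in CTS and 129 ± 5.98 in PLA, and it rose in PLA over CTS by a log2 fold change of 2.19 (SE 0.61, adjusted p = 0.0386). Against NC its log2 fold change in PLA, 1.40, did not pass (adjusted p = 0.148). Il34, the other ligand of that receptor, lay between 2.10 and 2.49 FPKM in the group means and was called in none of the 6 comparisons. Csf2rb, the shared signalling subunit of the receptors for Csf2, Il3 and Il5, rose in PLA over NC by 1.84, over GelMA by 1.32 and over CTS by 1.34 (adjusted p = 0.000467, 0.00545 and 0.00347).

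Markers of other leukocytes moved with the same groups. All 8 B and T cell genes were called higher in GelMA against NC, led by the B cell gene Ms4a1 at a log2 fold change of 6.07 (SE 0.74, adjusted p = 0.00104), and the summed level of the list was 498 to 567 FPKM in GelMA, 96.5 to 103 in PLA, 65.2 to 129.3 in CTS and 20.3 to 43.1 in NC. No gene of that list was at 0 in any group. In PLA against NC 5 of these 8 were called higher. Of 8 dendritic cell genes, 5 were called higher in GelMA against NC, 4 in PLA and 0 in CTS, and their summed level was 153 to 159 FPKM in GelMA, 85.6 to 97.9 in PLA, 67.1 to 125.6 in CTS and 21.1 to 50.1 in NC. In the other direction, 4 of 6 eosinophil genes and 3 of 5 mast cell genes were called lower in GelMA against NC, and 5 of 6 and 4 of 5 in PLA against NC. The summed level of the eosinophil list was 53.9 to 625 FPKM in NC, 159 to 809 in CTS, 18.7 to 41.5 in GelMA and 4.93 to 7.85 in PLA, where Prg3 and Il5ra reached 0 counts in a library. The summed level of the mast cell list was 95.7 to 504 FPKM in NC, 134 to 172 in CTS, 22.7 to 27.8 in GelMA and 9.46 to 21.2 in PLA. The eosinophil peroxidase gene Epx measured 2.50 ± 0.990 FPKM in GelMA, 0.0670 ± 0.00982 in PLA and 31.7 ± 23.3 in NC. Of 9 tested neutrophil genes, 4 were called lower in GelMA against NC, among them Camp and Mpo at -3.48 and -3.16, and in PLA against NC 4 were called lower and 1 higher. The summed level was 6399 to 17346 FPKM in GelMA, 9312 and 9342 in PLA, 36632 to 58489 in CTS and 8112 to 81802 in NC. Of 8 fibroblast genes, 0 were called in any of the 6 comparisons, a count near the share over all genes in a list this short. The part of these cell types in the levels of the members was not tested.

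The genes whose log2 CPM followed each member most closely over the 11 libraries are given as a description, with Pearson's r and no p. The libraries of 1 group share their treatment, so r reflects mainly the group means. For Adgre1 they were Ube2j1, Cep43 and Pde4d (r from 0.976 to 0.987). For Aif1 they were the transcription factor gene Irf8, Clec4a2 and Fcrla (r from 0.986 to 0.993), and for Cd68 they were the macrophage gene Mpeg1, the chemokine receptor gene Ccr7 and the lipid receptor gene Trem2 (r from 0.973 to 0.986). For Mrc1 they were Fbxo7, Ubash3b and Mid2 (r from 0.961 to 0.982), for Cd163 they were Fam167a, Gsdmd and Lysmd2 (r from 0.965 to 0.974), and for Mertk they were Slc12a7, Tnfrsf26 and Cd38 (r from 0.969 to 0.975). For Msr1 they were Pdcd1lg2, a ligand of the receptor PD-1, the inhibitory Fc receptor gene Fcgr2b and the phosphatase gene Dusp2 (r from 0.983 to 0.993). For Folr2 they were Cyb561a3, Ctla4 and Slamf1 (r from 0.971 to 0.981), of which Ctla4 and Slamf1 are known from lymphocytes. Among the members themselves, the closest pair was Adgre1 and Mrc1 (r = 0.947, and 0.977 without NC replicate 2), although without that library Aif1 and Folr2 were closer (r = 0.988, and 0.815 with it). The least alike were Cd163 and Msr1 (r = 0.140, and 0.405 without NC replicate 2). All correlations of Adgre1 contain its GelMA level, which was named when the genes were chosen.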

How the data were processed

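RNA-seq of Cd45- cells gave 11 libraries of NC, GelMA, CTS and PLA, grouped by their labels. Per the labels, the authors used fastp, HISAT2, HTSeq and DESeq with assembly mRatBN7.2, versions not given in the sources used here. The deposited tables hold raw read counts per gene and the authors' FPKM, which carries no composition factor. Counts of 18049 genes (filterByExpr, minimum count 10) were scaled by TMM and fitted in edgeR 4.0.16 (R 4.3.3) with a robust quasi-likelihood model of all 4 groups. Calls required a Benjamini-Hochberg adjusted p under 0.05 over all genes and a log2 fold change beyond 1. Intervals are 95%. Depth ran from 22509898 to 31290849 counts per library, and 0 columns were left unmapped. Alternatives used DESeq2 1.42.0, limma 3.58.1 on log2(FPKM + 1) and log2(FPKM + 0.1), other scalings, filters and thresholds, the replicate number as a block, and each library left out.

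The members, gene lists and tests were chosen with earlier results of these data known. Named genes were all members and Ptprc, the 3 genes most correlated with each member among those of average log2 CPM of at least 3, up to 2 called genes of each list per direction and comparison by fold, Csf1r, Axl, Gas6, Csf1, Il34 and markers of other cells. Hmox1 and Lyz2 fell outside this rule and were named after their values were seen. Same-numbered libraries deviated with correlations from -0.108 to 0.118, so the numbers were not taken as pairs. No 2 replicates were alike within sampling noise (chi-square per degree of freedom of at least 23.9). The steps were tested on simulated data. Promoter windows came from RefSeq (GRCr8). Gene positions in mRatBN7.2, proteins and reads were not analysed here.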

Additional observations from a re-analysis of the deposited data

How the results depend on the processing

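The 6 calls higher in GelMA against NC stayed past both thresholds under every alternative listed in the methods. Other counts moved as follows. In CTS against NC the count higher was 2 in DESeq2 and ran from 0 to 3 with each library left out. In PLA against NC the count higher was 2 in edgeR on the 2 groups alone and ran from 3 to 7 with each library left out. In CTS against GelMA the count lower was 1 at an adjusted p under 0.01, 1 with the replicate block, and 0 to 6 with each library left out. In PLA against GelMA the count higher was 1 in edgeR on the 2 groups, 1 in DESeq2, and 0 to 1 with each library left out. The count lower there was 2 with library size alone, 0 at an adjusted p under 0.01, 3 in edgeR on the 2 groups, 5 with limma at either pseudocount, 4 without its filter, 0 with the replicate block, and 0 to 2 with each library left out. No label gives the replicate numbers as pairs, and they were not taken as such. Calls lost under the replicate block are therefore not read as a weaker effect. Directions turned for values that were not called. Mrc1 in CTS against NC was 0.19 with library size alone, 0.17 and 0.19 with limma at pseudocounts 1 and 0.1, 0.17 without its filter, 0.041 with the replicate block, and -0.24 to 0.37 with each library left out. With each library left out, Cd163 ran from -1.87 to 0.97 in CTS against NC, from -2.40 to 0.57 in PLA against NC and from -1.12 to 0.072 in PLA against CTS, and Mertk from -0.33 to 0.83 in CTS against NC. Where the cause is not named by the alternative itself, the cause was not tested. Library size alone moved the median of all genes to -0.43, -0.58 and -0.51 in PLA against NC, GelMA and CTS, and the share of calls that were higher went from 67.5%, 75.8% and 64.5% to 41.3%, 15.9% and 23.6%. In GelMA against NC it moved the median to 0.16 and that share from 61.0% to 74.1%. A fit with 1 PLA library assumes that it varies like the other groups. Depth limits Cd163 and Marco, and PLA with 2 libraries limits its comparisons.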
